A study of Mus musculus with 6 samples.

Results

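The Wnt pathway was examined in RNA sequencing of mouse dental epithelium through 47 genes chosen by name from the 24959 genes of the deposited count table. They comprise 9 Wnt ligands, 11 receptors and co-receptors, 4 R-spondins, 10 extracellular antagonists, 8 target genes and feedback inhibitors, and a set of 5 with the TCF factors and Axin1. All 47 were found in the table as protein-coding genes, and 43 of them carried the KEGG term for Wnt signaling there. The samples are labelled as dental epithelial cells, the cell layer of the tooth germ that forms enamel, taken on postnatal day 0. The groups were 3 libraries with conditional deletion of Pkm (Pkm cKO, genotype PKM knockout in the labels) and 3 controls (genotype WT). Pkm encodes the M-type pyruvate kinases of the last step of glycolysis. The sources used here do not give the Cre driver, the deleted exon, the mouse strain, any pooling of tissue or whether the controls carried floxed alleles. Libraries are labelled as biological replicates without saying that each is a separate animal, so p-values measure only the spread between these samples.

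Wnt proteins are lipid-modified secreted ligands that bind Frizzled receptors and, in the canonical branch, the co-receptors Lrp5 and Lrp6. Their binding stops the Axin and Apc complex from degrading beta-catenin, which then enters the nucleus and acts with TCF and LEF factors on target genes, several of which encode inhibitors of the same pathway. R-spondins, through Lgr receptors, protect Frizzled from removal by the ubiquitin ligases Rnf43 and Znrf3. In the tooth the pathway is known from mouse and human genetics to be needed for initiation and to control tooth number, with ligands mainly in the epithelium and many secreted inhibitors in the mesenchyme.

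Total counts ran from 30588350 to 39085792 in Pkm cKO libraries and from 38130829 to 39415700 in control libraries. Levels are in CPM, read counts per 1e6 reads, on library sizes scaled by edgeR's TMM method. The targeted gene, Pkm, fell to 351 ± 43.0 CPM in Pkm cKO libraries, against 1172 ± 117 CPM in controls (SD, n = 3 each), with an edgeR adjusted p of 0.0109 (0.0600 to 0.0792 when any 1 control was left out). Log2 CPM correlated at r = 0.944 to 0.966 between Pkm cKO libraries and at 0.981 to 0.986 between controls, across genes. Pkm cKO replicate 3 stood apart: 6 skeletal muscle genes summed to 2593 CPM there, to 59.9 and 12.5 CPM in the other Pkm cKO libraries, and to 0.803 to 1.77 CPM in controls. For some genes the log2 fold change without this library is given as well, but genes given without it could also move.

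Markers of the labelled tissue and of other cells moved between the groups. All 10 dental epithelial markers were detected in every library, and their sum was 12325 to 13949 CPM in Pkm cKO libraries and 16257 to 18449 CPM in controls, without overlap. The sum of 6 ameloblast genes was 360.4 to 5584 CPM in Pkm cKO libraries and 10763 to 25371 CPM in controls. The 14 mesenchymal and fibroblast genes, among them Col1a1, Col1a2, Col3a1 and Vim, were also all present, with sums of 19402 to 40936 CPM in Pkm cKO libraries and 20154 to 31791 CPM in controls. Col1a1 and Col1a2 made up most of these sums. Of the 14 genes, 12 had a log2 fold change above 0, and 9 stood higher in every Pkm cKO library than in any control. The 8 immune cell genes summed to 113 to 191 CPM in Pkm cKO libraries and to 60.6 to 64.0 CPM in controls. The 4 odontoblast genes summed to 189 to 3450 CPM against 2338 to 5236 CPM in controls, the 6 endothelial genes to 335 to 602 CPM against 316 to 381 CPM, and the 5 erythroid genes to 267 to 353 CPM against 574 to 801 CPM. In bulk RNA, fewer cells of a type and less RNA per cell cannot be told apart.

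**Figure D1:**
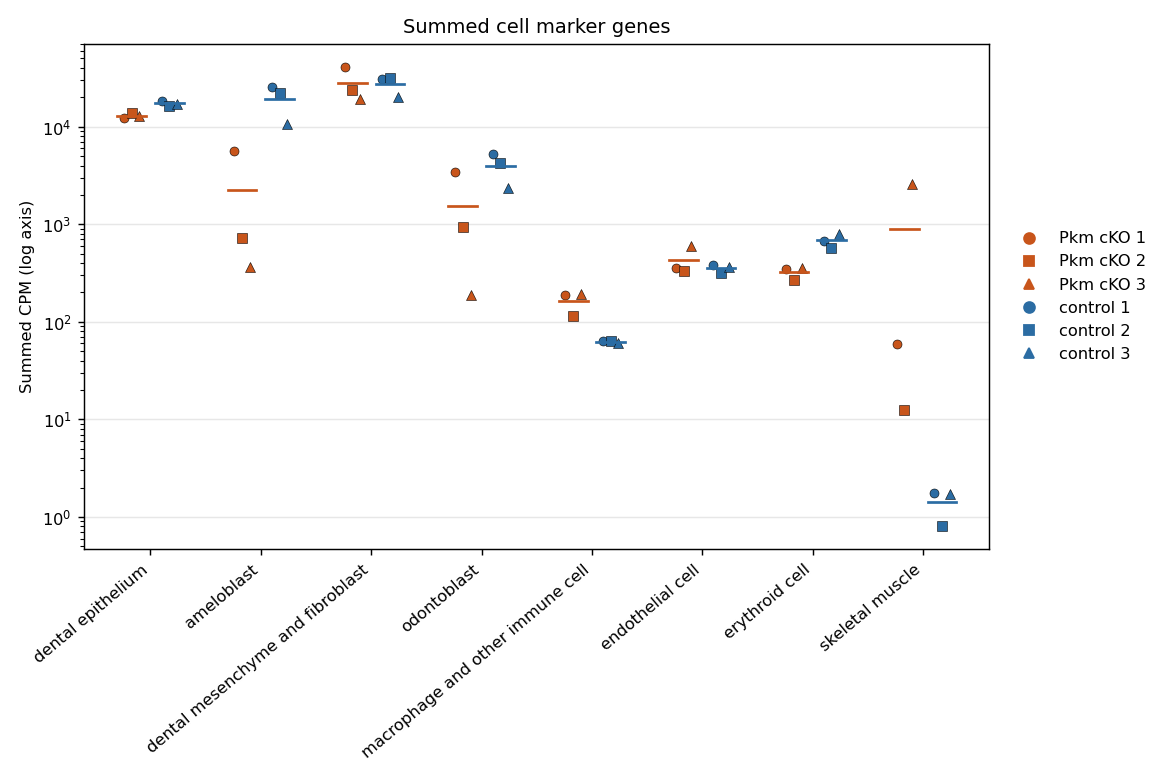
Summed CPM of marker genes of 8 cell types (log axis) in each library, Pkm cKO left of control, with a line at each group's mean. The ameloblast and epithelial sums lie lower in all 3 Pkm cKO libraries, the immune sum lies higher, and the muscle sum reaches 2593 CPM in Pkm cKO replicate 3.

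Between the groups 1 of the 47 Wnt genes passed the test over all genes: Rspo1, an R-spondin, rose in the Pkm cKO libraries. Among the genes that missed the threshold with groups that did not overlap were the secreted antagonists Sfrp2, Frzb and Sfrp1, the R-spondin receptor Lgr6, and the feedback genes Axin2 and Nkd2, all with higher levels in Pkm cKO libraries. None of the 9 ligands had groups that did not overlap. The test was edgeR's quasi-likelihood test with Benjamini-Hochberg adjustment over 15930 genes, at an adjusted p under 0.05. It called 0.552% of all tested genes, 0.345% as higher and 0.207% as lower. Of the 47 genes 45 had enough reads to be tested, while Rspo3 and Dkk4 had 3 to 63 and 0 to 5 reads in a library. A further description used no threshold on p: in 14 of the 45, or 31.1%, every Pkm cKO library was higher than every control, and in 2, or 4.4%, every Pkm cKO library was lower. Over all tested genes 11.2% were higher in this way and 12.2% lower, 23.3% together. An unadjusted p under 0.05 was reached by 16 of the 45, 15 of them higher, against 17.5% of all tested genes. The median log2 fold change (Pkm cKO minus control) of the 45 was 0.30, with 31 above 0, and that of all tested genes was 0.01. The genes were chosen with earlier results of these data known, so these shares cannot show a shift of the pathway. Among 68 other tested Wnt pathway genes, 16.2% were higher in every Pkm cKO library and 17.6% lower.

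The number of calls depended on the libraries and the tool. No Wnt gene and no other gene was called by edgeR when any 1 control was left out (11, 13 and 15 of the Wnt genes had an unadjusted p under 0.05 without control replicates 1, 2 and 3, against 9.29%, 10.8% and 15.2% of all genes). Without Pkm cKO replicate 1, 6 Wnt genes were called, all higher (Fzd1, Lgr6, Rspo1, Rspo2, Sfrp2 and Wnt10b), against 3.92% of all genes. Without Pkm cKO replicate 2 there were 4 (Frzb, Rspo1, Sfrp1 and Sfrp2), against 1.13% of all genes. Leaving out Pkm cKO replicate 3 gave 2 (Lgr6 and Rspo1), against 0.77% of all genes. DESeq2 called 11 Wnt genes on the same libraries, all higher, against 7.34% of all genes with an adjusted p: Rspo1, Rspo2, Sfrp1, Sfrp2, Frzb, Lgr6, Fzd1, Fzd10, Lrp5, Axin2 and Nkd2. On counts simulated with edgeR's own dispersions, equal in both groups, DESeq2 made more false calls than edgeR, 30.5% against 14.8% of its calls. Both shares were above the threshold of 0.05. The real Pkm cKO libraries spread more than controls, so these shares may not hold for the real counts.

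**Figure D2:**
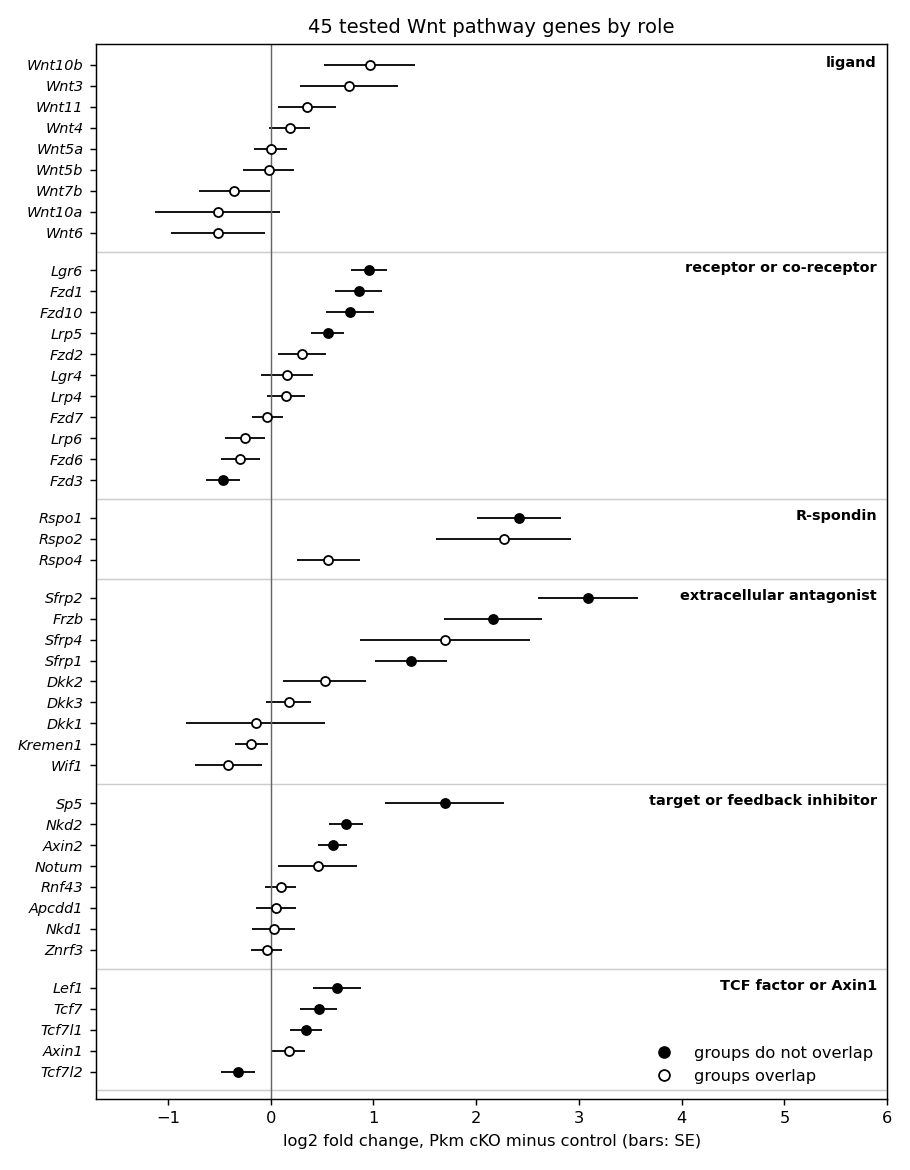
Log2 fold change (Pkm cKO minus control, x axis, bars are SE) of the 45 tested Wnt pathway genes grouped by role. Filled points mark genes whose groups did not overlap, 14 higher and 2 lower in Pkm cKO libraries, and all 9 ligands are open points.

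The 9 ligands of the list were compared first among themselves, by the level of their RNA. Per kilobase of annotated exons, Wnt6 had the highest level of the 9, with a mean of 126 CPM per kb in Pkm cKO libraries and 180 CPM per kb in controls. In controls the next were Wnt10a, at 47.4 to 78.9 CPM per kb, and Wnt4, at 47.8 to 72.1 CPM per kb, and these ranges overlapped. Wnt5a followed at 18.0 to 21.8 CPM per kb in controls. Wnt11 (6.33 to 12.2) and Wnt7b (7.69 to 9.77 CPM per kb) could not be ordered, and Wnt5b (3.31 to 4.76) and Wnt10b (2.39 to 3.81 CPM per kb) overlapped as well. Of the 9, Wnt3 was lowest in controls, at 0.623 to 0.744 CPM per kb. Outside the 9, Wnt3a lay at 44.9 to 60.8 CPM per kb in controls, which overlapped Wnt10a and Wnt4. Wnt7a, also outside them, lay at 12.2 to 16.9 CPM per kb in controls. In Pkm cKO libraries the mean of Wnt4, 64.5 CPM per kb, stood above that of Wnt10a, 43.6 CPM per kb, but their ranges overlapped again, at 54.0 to 77.5 CPM per kb for Wnt4 and 12.8 to 67.2 CPM per kb for Wnt10a. In Pkm cKO replicate 3 Wnt4 was above Wnt6, which was at 51.6 CPM per kb there.

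Wnt6, an epithelial ligand in tooth germs of the mouse, had 438, 278 and 113 CPM in Pkm cKO replicates 1 to 3, against 455, 387 and 343 CPM in control replicates 1 to 3. The groups overlapped only through Pkm cKO replicate 1 (log2 fold change -0.52, SE 0.457, edgeR adjusted p 0.615). Wnt4, a ligand known from kidney and gonad development, had 226, 260 and 325 CPM in Pkm cKO libraries and 212, 200.5 and 302 CPM in controls. Its groups overlapped (log2 fold change 0.18, SE 0.201, and 0.04 without Pkm cKO replicate 3). Wnt10a, whose human counterpart is mutated in tooth agenesis, and Wnt10b are singled out after their values were seen, because the Pkm cKO libraries differed from each other. Wnt10a had 166, 125 and 31.5 CPM in Pkm cKO libraries, against 195, 150 and 117 CPM in controls. Wnt10b had 8.08, 19.2 and 31.3 CPM in Pkm cKO libraries, against 8.11, 9.06 and 12.9 CPM in controls. So Pkm cKO replicate 3 was lowest of all libraries for Wnt6 and Wnt10a and highest for Wnt10b, while Pkm cKO replicate 1 lay within or beside the controls for all of them. Like Wnt6 and Wnt10a, and unlike Wnt10b, the ameloblast and odontoblast sums were lowest in Pkm cKO replicate 3 and highest of the Pkm cKO libraries in replicate 1. The mesenchymal and fibroblast sum had that order too, with 40936, 23685 and 19402 CPM in Pkm cKO replicates 1 to 3. Of its 14 genes 3 were lowest of the Pkm cKO group in replicate 3. Sums of the other marker lists did not have that order. The part of any of these cells in the ligand levels was not tested. Without Pkm cKO replicate 3 the log2 fold changes were -0.13 for Wnt6, -0.07 for Wnt10a and 0.45 for Wnt10b, and without Pkm cKO replicate 1 Wnt10b passed (log2 fold change 1.33, edgeR adjusted p 0.0408).

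The other ligands had overlapping groups. Wnt5a, a ligand of planar polarity and mesenchymal outgrowth, averaged 151 ± 21.9 CPM in Pkm cKO libraries and 151 ± 16.7 CPM in controls, the closest pair of means among the ligands. Wnt5b stood at 11.1 ± 2.11 and 11.3 ± 2.19 CPM, in the same order. Wnt11, also known for signaling without beta-catenin, averaged 49.1 ± 15.8 CPM in Pkm cKO libraries and 38.4 ± 12.1 CPM in controls. Wnt7b, an epithelial ligand, averaged 34.8 ± 19.0 CPM in Pkm cKO libraries and 44.5 ± 5.87 CPM in controls. Its highest library was Pkm cKO replicate 3 at 56.2 CPM, and leaving that out gave a log2 fold change of -0.88 (edgeR adjusted p 0.0831). Wnt3, a canonical ligand, had 68 to 191 reads in a Pkm cKO library and 74 to 84 in a control, and its log2 fold change of 0.76 was 1.12 without Pkm cKO replicate 3. Over the 9 ligands the median log2 fold change was 0.00 (5 below 0), and it was 0.12 without Pkm cKO replicate 1. Their summed level was 764 to 1044 CPM in Pkm cKO libraries and 987 to 1129 CPM in controls.

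**Figure D3:**
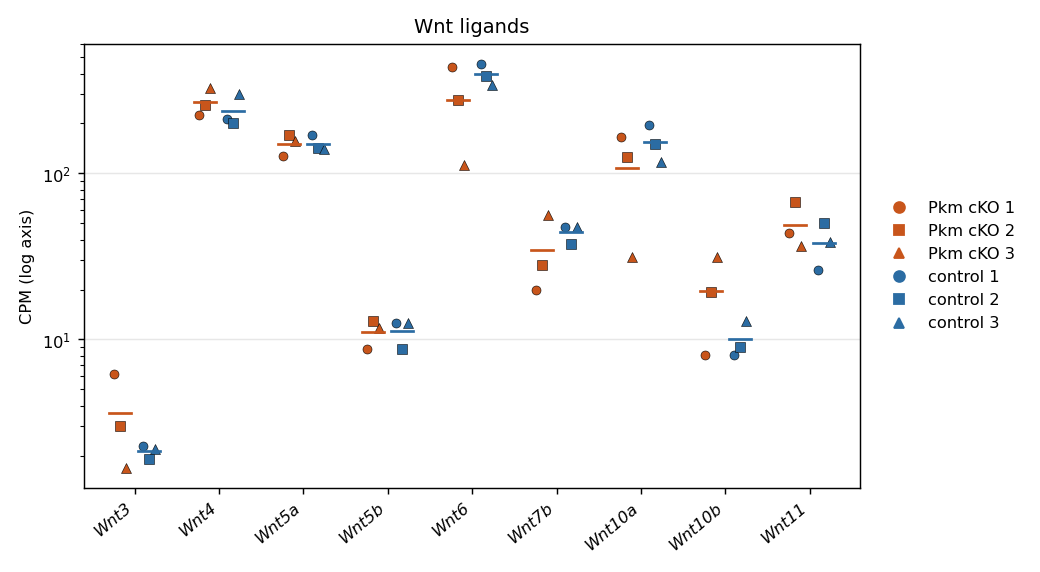
CPM of the 9 Wnt ligands (log axis) in each library, Pkm cKO left of control, with a line at each group's mean. For every ligand the groups overlap, and Pkm cKO replicate 3 (triangle) lies lowest for Wnt6 and Wnt10a and highest for Wnt10b.

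Among the 11 receptors and co-receptors, 4 were higher in every Pkm cKO library than in any control and 1 was lower, and none passed the threshold. Lgr6, a receptor for R-spondins that marks stem cells of mouse skin, had 59.4, 65.5 and 53.3 CPM in Pkm cKO replicates 1 to 3, against 25.9, 35.7 and 30.4 CPM in control replicates 1 to 3. The lowest Pkm cKO library was above the highest control, and the log2 fold change of 0.95 (SE 0.177) missed the threshold with an edgeR adjusted p of 0.0525. Over the alternatives its adjusted p ranged from 0.000257 to 0.30, and 6 of 14 alternatives called it. Fzd1, a Frizzled receptor, had 39.1, 53.6 and 63.5 CPM in Pkm cKO libraries and 21.7, 30.9 and 33.7 CPM in controls (log2 fold change 0.86, SE 0.230, edgeR adjusted p 0.111). Fzd10, another Frizzled, had 16.2, 16.7 and 25.6 CPM in Pkm cKO libraries and 12.6, 11.1 and 10.5 CPM in controls. Pkm cKO replicate 3 was well above the other libraries, and without it the log2 fold change of Fzd10 was 0.53 in place of 0.77. The co-receptor Lrp5 had 110, 137 and 116 CPM in Pkm cKO libraries and 95.3, 78.9 and 72.9 CPM in controls (log2 fold change 0.56, SE 0.161, edgeR adjusted p 0.129).

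Fzd3, a Frizzled known for planar cell polarity, was the 1 receptor lower in every Pkm cKO library, with 142, 104 and 111 CPM in Pkm cKO libraries and 180, 152 and 161 CPM in controls. The highest Pkm cKO library was below the lowest control (log2 fold change -0.46, SE 0.162, edgeR adjusted p 0.188). Fzd2, the other receptor with the most reads, had 123, 225 and 121 CPM in Pkm cKO libraries and 129, 116 and 134 CPM in controls. Only Pkm cKO replicate 2 lay outside the control range, and without it the log2 fold change was -0.05 in place of 0.30. Lrp6, the closest relative of Lrp5, averaged 86.6 ± 22.2 CPM in Pkm cKO libraries and 103 ± 10.2 CPM in controls. Fzd6 (95.6 ± 18.9 against 117 ± 20.3 CPM) and Fzd7 (104 ± 12.0 against 106 ± 9.45 CPM in controls) had overlapping groups. So did Lgr4 (92.6 ± 37.5 against 83.0 ± 9.64 CPM) and Lrp4 (134 ± 33.6 against 121 ± 11.4 CPM in controls), a co-receptor that binds the tooth inhibitor Sostdc1. The log2 fold change of Lgr4 was 0.16, or -0.20 without Pkm cKO replicate 3. Over the 11 receptors the median log2 fold change was 0.16, with 7 above 0, or 0.29 without Pkm cKO replicate 3.

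R-spondins strengthen Wnt signals, and 3 of the 4 could be tested. Rspo1 had 6.75, 3.95 and 10.5 CPM in Pkm cKO replicates 1 to 3, against 1.20, 1.45 and 1.30 CPM in control replicates 1 to 3. These levels rest on 136 to 421 reads in a Pkm cKO library and 44 to 56 reads in a control. The lowest Pkm cKO library was above every control, and Rspo1 rose 5.35-fold (2.42 on the log2 scale with an SE of 0.409, edgeR adjusted p 0.0457). It kept its call without Pkm cKO replicate 3 (log2 fold change 2.03, adjusted p 0.0460) and lost it without control replicates 1, 2 or 3 (adjusted p 0.260, 0.209 and 0.191), with limma-voom (0.0882) and without robust estimation in edgeR (0.0621). Rspo2, singled out after its values were seen, had 0.711, 3.78 and 3.48 CPM in Pkm cKO libraries, against 0.2995, 0.803 and 0.545 CPM in controls. Pkm cKO replicate 1 lay among the controls, and the log2 fold change of 2.27 (SE 0.658) had an edgeR adjusted p of 0.129. Rspo4, whose human counterpart is needed for nail growth, had 12.3, 11.1 and 6.26 CPM in Pkm cKO libraries and 5.36, 6.91 and 7.86 CPM in controls. Its groups overlapped because Pkm cKO replicate 3 was low (log2 fold change 0.56, and 0.81 without that library). For Rspo3 the reads were 5, 5 and 63 in Pkm cKO libraries and 3, 4 and 13 in controls. The summed level of the 4 R-spondins was 19.0 to 21.8 CPM in Pkm cKO libraries and 6.94 to 10.0 CPM in controls. R-spondin genes are known to be transcribed in mesenchymal cells. Of the 14 mesenchymal markers 12 were above 0 (median log2 fold change 0.87), and the 2 below 0 were Col1a1 and Col1a2. The sums of the 14 overlapped between the groups. Other lists were above 0 as well: 8 of 8 immune markers (median 1.315), 6 of 6 endothelial (0.224) and 5 of 5 tested muscle markers (8.72). Of the 10 dental epithelial markers 2 were above 0 (median -0.35). None of the ameloblast, odontoblast and erythroid markers was above 0. The part of mesenchymal or any other cells in the R-spondin levels was not tested.

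Of the extracellular antagonists, the secreted Frizzled-related proteins had the largest differences. These proteins resemble the Wnt-binding part of Frizzled and hold ligands away from it. Sfrp2 had 154, 52.5 and 135 CPM in Pkm cKO replicates 1 to 3, against 8.09, 17.4 and 14.6 CPM in control replicates 1 to 3. The groups stood far apart, but the Pkm cKO libraries ranged over 2.93-fold and the controls over 2.15-fold, and the log2 fold change of 3.09 (SE 0.489) missed the threshold with an edgeR adjusted p of 0.0623. Over the alternatives the adjusted p ranged from 1.53e-12 with DESeq2 to 0.260, and it was called by 3 of 14. Frzb, another protein of this family, had 24.8, 14.4 and 47.4 CPM in Pkm cKO libraries, against 3.76, 8.03 and 7.52 CPM in controls (log2 fold change 2.16, SE 0.474, edgeR adjusted p 0.0889). Sfrp1 had 58.0, 34.4 and 99.3 CPM in Pkm cKO libraries, against 21.3, 26.5 and 26.7 CPM in controls (log2 fold change 1.37, SE 0.347, edgeR adjusted p 0.112). Without Pkm cKO replicate 3, the highest library for Frzb and Sfrp1, these log2 fold changes were 1.62 and 0.91. Sfrp4, singled out after its values were seen, had 27.3, 16.2 and 48.6 CPM in Pkm cKO libraries, against 2.04, 8.91 and 17.4 CPM in controls. Control replicate 3 exceeded Pkm cKO replicate 2, so the groups of Sfrp4 overlapped, and its log2 fold change of 1.70 was 1.21 without Pkm cKO replicate 3.

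Within the Pkm cKO group, replicate 2 was lowest for Sfrp1, Sfrp2, Sfrp4 and Frzb. It was also the lowest of that group for 10 of the 14 mesenchymal markers and 7 of the 8 immune markers, while replicate 3 was lowest for 3 of the mesenchymal markers and replicate 1 for 1. The same replicate 2 was lowest for 5 of 5 erythroid, 4 of 6 endothelial and 4 of 6 skeletal muscle markers. It was lowest for 3 of 10 dental epithelial markers, 0 of 6 ameloblast markers and 0 of 4 odontoblast markers. So this order was not particular to mesenchymal or immune markers. Of the mesenchymal genes with the most reads, Vim and Col3a1 were lowest in replicate 2, with 687 CPM against 835 and 1060 CPM for Vim and 772 CPM against 1054 and 3374 CPM for Col3a1. The collagen genes Col1a1 and Col1a2 had a different order, with 16849 and 4363 CPM in replicate 2, against 9097 and 4340 CPM in replicate 3. In controls Vim stood at 557 to 639 CPM and Col3a1 at 431 to 478 CPM, below every Pkm cKO library, whereas Col1a1 and Col1a2 had overlapping groups. The part of mesenchymal or any other cells in the antagonists' levels was not tested.

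The antagonists outside this family had overlapping groups. Wif1, which binds Wnts directly, had 325.5, 204 and 123 CPM in Pkm cKO libraries and 320.2, 314 and 234 CPM in controls. Pkm cKO replicate 1 was the highest and replicate 3 the lowest of the 6 libraries, with a log2 fold change of -0.41 (SE 0.325) that was -0.12 without replicate 3 and an edgeR adjusted p of 0.558. Kremen1, the membrane receptor that works with Dkk proteins, had 207, 183 and 148 CPM in Pkm cKO libraries and 210.4, 214 and 188 CPM in controls. Its groups overlapped through Pkm cKO replicate 1 (log2 fold change -0.19, SE 0.160). Dkk1, an inhibitor of Lrp5 and Lrp6, ranged most of the 45 tested Wnt genes within the Pkm cKO group, with 56.3, 36.7 and 7.72 CPM there and 38.3, 43.4 and 29.6 CPM in controls. Its log2 fold change of -0.15 turned to 0.34 without Pkm cKO replicate 3. Dkk2 had 15.1 CPM in that library and 5.10 to 6.24 CPM in the other 5, and its log2 fold change of 0.53 turned to -0.14 without it. Dkk3, a divergent family member, averaged 137 ± 43.0 CPM in Pkm cKO libraries and 121 ± 4.15 CPM in controls, and its log2 fold change of 0.17 was 0.06 without Pkm cKO replicate 3. Over the 9 tested antagonists the median log2 fold change was 0.53, with 6 above 0 and 3 whose groups did not overlap. That median was 0.34 without Pkm cKO replicate 3 and 0.79 without Pkm cKO replicate 1.

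**Figure D4:**
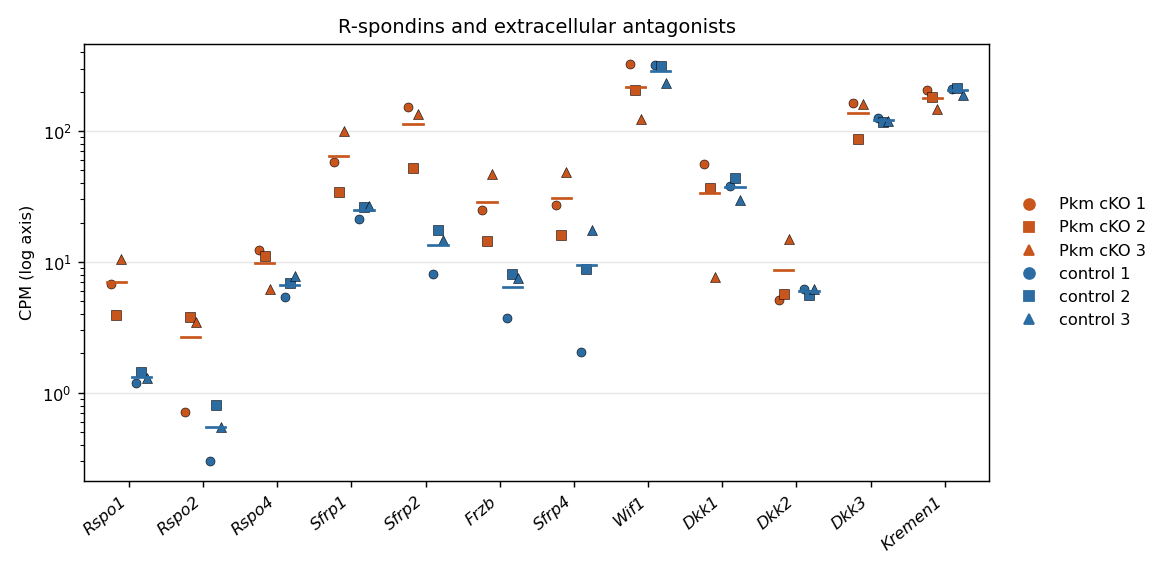
CPM of 3 R-spondins and 9 extracellular antagonists (log axis) in each library, Pkm cKO left of control, with a line at each group's mean. Rspo1, Sfrp1, Sfrp2 and Frzb are higher in all 3 Pkm cKO libraries than in any control, while Wif1, Dkk1 and Kremen1 overlap.

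The targets and feedback inhibitors are the nearest readout of canonical signaling in this list, since beta-catenin activates most of them. Of the 8, 7 had log2 fold changes above 0 and 3 had groups that did not overlap, all higher in Pkm cKO libraries, and none passed the threshold. Axin2, a scaffold of the destruction complex and the most used reporter of the pathway, had 89.5, 77.2 and 90.5 CPM in Pkm cKO replicates 1 to 3, against 53.7, 57.9 and 57.7 CPM in control replicates 1 to 3. The groups were well apart and tight (log2 fold change 0.60, SE 0.142), with an edgeR adjusted p of 0.0870. Nkd2, an inhibitor that binds Dishevelled, had 36.3, 33.0 and 32.3 CPM in Pkm cKO libraries, against 21.0, 19.8 and 20.5 CPM in controls. It had the narrowest spread of the Wnt genes whose groups did not overlap, within 1.13-fold in Pkm cKO libraries and 1.06-fold in controls (log2 fold change 0.73, SE 0.165, edgeR adjusted p 0.0808). Without Pkm cKO replicate 3 the log2 fold changes of Axin2 and Nkd2 were 0.57 and 0.77, and over the 14 alternatives they ranged from 0.56 to 0.68 and from 0.67 to 0.77. The adjusted p ranged from 0.00907 to 0.395 for Axin2, with 1 call, and from 0.00203 to 0.362 for Nkd2, with 2 calls. Sp5, a transcription factor gene and direct target, had 16, 45 and 57 reads in Pkm cKO libraries and 10, 18 and 10 reads in controls. At this depth its log2 fold change of 1.69 had an SE of 0.579 (edgeR adjusted p 0.180). The Sp5 groups were narrowly apart, with 0.517 CPM in Pkm cKO replicate 1 against 0.466 CPM in control replicate 2. Their reads, 16 and 18, were in the other order. Of the 14 mesenchymal markers 12 were also above 0 and 2 below (median log2 fold change 0.87). So were 8 of 8 immune markers (1.315) and 6 of 6 endothelial markers (0.224), against 2 of 10 dental epithelial markers (-0.35). The part of cell composition in the target levels was not tested.

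The remaining targets had overlapping groups. Apcdd1, a membrane inhibitor of Wnt signals, had 105, 94.5 and 139 CPM in Pkm cKO libraries and 132, 108 and 86.9 CPM in controls. Notum, an enzyme that removes the lipid from Wnt proteins, had 135, 153 and 50.7 CPM in Pkm cKO libraries and 70.5, 78.2 and 97.6 CPM in controls. For Notum, Pkm cKO replicates 1 and 2 were above every control and replicate 3 below every control, so the log2 fold change of 0.46 became 0.82 without replicate 3 (edgeR adjusted p 0.0603). Nkd1, the relative of Nkd2, averaged 40.2 ± 9.83 CPM in Pkm cKO libraries and 39.4 ± 5.03 CPM in controls. The ubiquitin ligases Rnf43 (48.1 ± 3.17 against 45.01 ± 1.84 CPM) and Znrf3 (46.4 ± 2.42 against 47.6 ± 3.85 CPM in controls) differed by less than 0.1 on the log2 scale. The summed level of the 8 genes was 439 to 507 CPM in Pkm cKO libraries and 394 to 408 CPM in controls, and their median log2 fold change was 0.28. That median was 0.40 without Pkm cKO replicate 3 and 0.18 without Pkm cKO replicate 2, so it depended on the library.

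Promoter sequence is shown for the called gene Rspo1 and for the 3 target genes whose groups did not overlap, because TCF and LEF factors bind target genes at a known short motif. The lines give the 250 bases before the annotated start of transcription, 5′ to 3′, from RefSeq on GRCm38.p6, with capitals marking any match on either strand to the motif searched, which is CTTTG followed by 2 letters that are each A or T.
Rspo1, chr4:124986180-124986429, + strand: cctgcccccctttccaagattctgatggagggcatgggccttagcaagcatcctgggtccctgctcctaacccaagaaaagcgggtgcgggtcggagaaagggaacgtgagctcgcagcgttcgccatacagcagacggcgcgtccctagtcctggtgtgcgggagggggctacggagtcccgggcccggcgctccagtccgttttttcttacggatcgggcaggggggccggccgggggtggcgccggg
Axin2, chr11:108920099-108920348, + strand: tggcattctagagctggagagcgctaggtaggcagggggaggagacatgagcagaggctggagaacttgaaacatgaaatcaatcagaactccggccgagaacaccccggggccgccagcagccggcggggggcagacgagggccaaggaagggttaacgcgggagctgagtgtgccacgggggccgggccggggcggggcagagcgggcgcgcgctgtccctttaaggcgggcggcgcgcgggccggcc
Nkd2, chr13:73847632-73847881, - strand: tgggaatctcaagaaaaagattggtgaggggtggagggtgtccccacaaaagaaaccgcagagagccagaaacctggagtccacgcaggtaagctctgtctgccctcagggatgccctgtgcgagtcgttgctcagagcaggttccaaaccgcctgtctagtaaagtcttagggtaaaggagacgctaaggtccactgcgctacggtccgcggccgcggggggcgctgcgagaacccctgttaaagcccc
Sp5, chr2:70474673-70474922, + strand: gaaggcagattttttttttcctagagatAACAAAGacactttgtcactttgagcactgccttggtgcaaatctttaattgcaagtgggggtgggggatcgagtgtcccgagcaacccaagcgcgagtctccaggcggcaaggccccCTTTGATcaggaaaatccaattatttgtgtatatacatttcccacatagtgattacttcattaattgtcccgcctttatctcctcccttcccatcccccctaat
Sp5 held 2 matches that do not overlap. The first, AACAAAG, reads on the opposite strand, and the second is the form CTTTGAT. The windows of Rspo1, Axin2 and Nkd2 held none. The table had 36 promoters for 27 of the 47 genes, and 7 of the 36, or 19.4%, held a match, each in a different gene: Sp5, Wnt5b, Wnt11, Lef1, Tcf7l2, Dkk1 and Fzd7. Of all 32851 promoters there, 14.8% held a match to any of the motif forms and 3.21% held CTTTGAT. Among these genes CTTTGAT was present for Sp5, Wnt5b and Wnt11. A match is a run of letters and not a bound site, and sites outside these windows were not searched.

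The TCF factors, which carry beta-catenin to DNA, were split. Lef1, needed in mice for teeth to pass the bud stage, had 13.8, 19.2 and 21.6 CPM in Pkm cKO replicates 1 to 3, against 10.1, 11.7 and 13.1 CPM in control replicates 1 to 3. Tcf7 had 64.7, 81.3 and 69.7 CPM in Pkm cKO libraries, against 42.4, 50.9 and 62.8 CPM in controls. Tcf7l1, which acts mainly as a repressor, had 69.5, 93.6 and 85.4 CPM in Pkm cKO libraries, against 62.9, 65.7 and 67.2 CPM in controls. These 3 were higher in every Pkm cKO library, with small gaps between the nearest libraries of the groups. Their log2 fold changes were 0.64 (SE 0.231), 0.47 (SE 0.180) and 0.34 (SE 0.155), with edgeR adjusted p of 0.199, 0.227 and 0.286. Tcf7l2 was lower in every Pkm cKO library, with 37.3, 28.4 and 33.5 CPM, against 39.5, 41.8 and 42.7 CPM in controls (edgeR adjusted p 0.354 at a log2 fold change of -0.32, SE 0.167). Axin1, the constitutive scaffold of the destruction complex, had 127, 149 and 159 CPM in Pkm cKO libraries and 119, 116 and 150 CPM in controls, which overlapped. None of these 5 genes was called by any of the 14 alternatives.

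**Figure D5:**
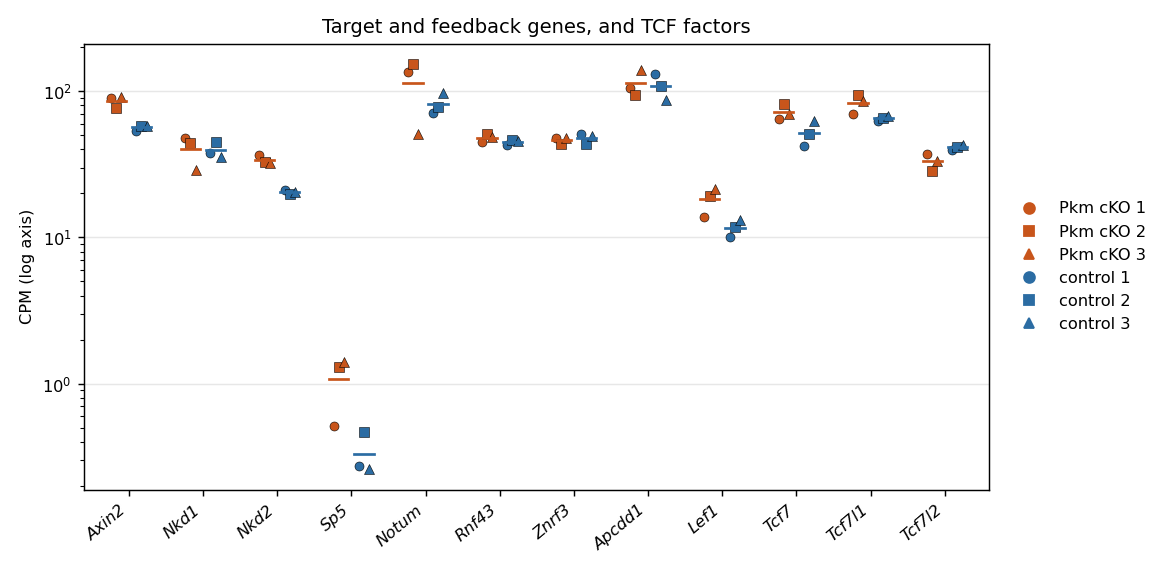
CPM of 8 target and feedback genes and 4 TCF factors (log axis) in each library, Pkm cKO left of control, with a line at each group's mean. Axin2, Nkd2, Sp5, Lef1, Tcf7 and Tcf7l1 are higher in all 3 Pkm cKO libraries than in any control, Tcf7l2 is lower, and Pkm cKO replicate 3 (triangle) is the lowest library for Notum.

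Libraries of the Pkm cKO group differed more from each other than controls did. The SD of log2 CPM was larger in the Pkm cKO group for 35 of the 45 tested Wnt genes, or 77.8%, and for 72.7% of all tested genes. The median SD of the Wnt genes was 0.38 in Pkm cKO libraries and 0.19 in controls, and over all tested genes it was 0.30 and 0.18 in the same order. Dkk1 (7.29-fold between the highest and lowest Pkm cKO library), Rspo2 (5.32-fold) and Wnt10a (5.26-fold) had the widest ranges of the tested Wnt genes.

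The rest of the pathway was taken from 8 lists of other Wnt genes. Of their 68 tested genes 1 passed, 38 were above 0 (median log2 fold change 0.05), 16.2% were higher in every Pkm cKO library and 17.6% lower. Igfbp4, an insulin-like growth factor binding protein that also inhibits Wnt signals, rose to 601 ± 135 CPM in Pkm cKO libraries, against 272 ± 42.5 CPM in controls (log2 fold change 1.14, SE 0.194, edgeR adjusted p 0.0467). Like every other gene, it lost its call when any 1 control was left out. Among the other secreted inhibitors Sfrp5 averaged 12.7 ± 8.84 CPM in Pkm cKO libraries and 3.63 ± 0.961 CPM in controls, and Dkkl1 stayed under 1 CPM in every library. All 5 tested ligands outside the main list were below 0. Wnt7a averaged 21.7 ± 7.56 CPM in Pkm cKO libraries and 45.8 ± 7.43 CPM in controls without overlap (edgeR adjusted p 0.0971 at a log2 fold change of -1.08, SE 0.267). Wnt9a had a log2 fold change of -0.59 with groups that did not overlap and Wnt3a one of -0.51 with groups that did. Wls, the carrier that brings Wnts to the cell surface, averaged 497 ± 134 CPM in Pkm cKO libraries and 733 ± 41.3 CPM in controls (log2 fold change -0.56, edgeR adjusted p 0.180), while Porcn, the enzyme that adds the lipid, stood at 24.8 ± 1.27 and 22.7 ± 1.95 CPM in the same order.

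Receptors of the branch without beta-catenin differed in direction. Ror2, a receptor of Wnt5a, averaged 114 ± 25.2 CPM in Pkm cKO libraries and 74.0 ± 3.71 CPM in controls, whereas Ryk averaged 124 ± 3.34 and 164 ± 8.46 CPM. The groups did not overlap for either, and both missed the threshold (edgeR adjusted p 0.127 and 0.162). Fzd4 had a log2 fold change of 0.77 (SE 0.313). Of the 12 planar polarity genes none passed. Celsr1, an adhesion protein of planar polarity in epithelia, averaged 605 ± 201 CPM in Pkm cKO libraries and 1188 ± 210 CPM in controls (edgeR adjusted p 0.101). Prickle2 averaged 16.2 ± 3.93 and 27.4 ± 3.20 CPM, and Daam2 42.7 ± 9.44 and 22.2 ± 3.74 CPM, in the same order, and their groups did not overlap.

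No core gene of the pathway passed. Over 17 genes of beta-catenin and its destruction complex the median log2 fold change was 0.00. Ctnnb1, which encodes beta-catenin and is named as the pathway's central gene, was at 2231, 2409 and 2040 CPM in Pkm cKO libraries and at 2685, 2552 and 2620 CPM in controls, with the groups apart and a log2 fold change of -0.23 (SE 0.140, edgeR adjusted p 0.422). The kinase gene Gsk3b (148 ± 21.2 against 208 ± 11.3 CPM) and Tnks, which encodes a regulator of Axin stability (51.5 ± 12.0 against 87.5 ± 17.7 CPM in controls), were lower in every Pkm cKO library and had edgeR adjusted p of 0.148 and 0.121, and Apc2 had a log2 fold change of 0.98 with overlapping groups. Of 11 nuclear cofactors 10 were above 0 with a median of 0.11, and Tle1, Pygo2 and Tle4, with log2 fold changes of 0.64, 0.41 and -0.37, had the lowest p. Of the other reported targets Tnfrsf19, a receptor known from Wnt-responsive epithelium, averaged 413 ± 31.2 CPM in Pkm cKO libraries and 284 ± 3.74 CPM in controls (log2 fold change 0.54, SE 0.136, edgeR adjusted p 0.0986). Myc averaged 50.2 ± 12.0 and 36.0 ± 2.91 CPM in the same order, with groups that did not overlap, and Cd44 had a log2 fold change of -0.42 with groups that did.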

How the data were processed

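The authors deposited a table of raw read counts per gene for 24959 genes and 6 libraries. Reads were trimmed with fastp and aligned with HISAT2 to mm39, per the submitters' processing notes, and RNA was taken with a column kit, per the labels' protocols. The counting program, its strand setting, the annotation and tool versions: not given in the sources used here. Without the strand setting, reads of Wnt5a, Wnt7b, Rspo3, Sfrp2, Axin2, Notum, Lef1 and Tcf7l1 cannot be told apart from those of antisense transcripts that overlap their exons in GENCODE M21.

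From the deposited counts, edgeR 4.0.16 in R 4.3.3 (filterByExpr, TMM scaling, robust quasi-likelihood fit of Pkm cKO minus control) tested 15930 genes with Benjamini-Hochberg adjustment at 0.05. The biological coefficient of variation was 0.300. Standard errors are the log2 fold change over the square root of F. CPM per kb uses GENCODE M21 exon lengths (GRCm38), while the deposited counts use mm39. The SD of log2 CPM used a pseudocount of 0.5. On simulated data with 200 changed genes among 15634, edgeR recovered 26% of those changed 2-fold and 78% of those changed 4-fold.

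Members and lists were chosen with earlier results of these data known. All 47 members may be named. Values in every library are given for those that passed, those whose groups did not overlap and the 2 of each role with the most reads. Of the other pathway genes, those that passed and the 3 with the lowest p in each list are named, and of the markers up to 4 in each list with the most reads. Alternatives were DESeq2 1.42.0, limma-voom 3.58.1, other scalings and filters, a replicate block and leaving out each library.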

Additional observations from a re-analysis of the deposited data

How the results depend on the processing

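Across all tested genes 55 were higher and 33 lower in Pkm cKO libraries. The higher and lower counts were 301 and 217 without the filter, 688 and 430 with DESeq2, 0 and 2 with limma-voom, 0 and 2 without robust estimation, and 0 to 317 and 0 to 323 when 1 library was left out. Lower calls numbered 16 with DESeq2 size factors in edgeR and 18 with upper-quartile scaling. Of the Wnt genes, 1 was called, and the count was 4 without the filter, 2 with at least 1 CPM in 3 libraries, 11 with DESeq2, 0 with limma-voom, 0 without robust estimation and 0 to 6 when 1 library was left out. At an unadjusted p under 0.05 limma-voom had 16 Wnt genes and 2741 genes, and edgeR without robust estimation had 17 and 2840. Wnt genes whose groups did not overlap and were lower numbered 2 to 6 when 1 library was left out. Of all genes, 14.2% to 19.9% were lower in this way in those settings, against 12.2% with every library. The count of 6 was without Pkm cKO replicate 1, where the share of all genes was 19.9%. The causes of these differences were not tested.

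The labels do not say whether replicate numbers pair the samples. Deviations of same-numbered libraries correlated at 0.235, 0.015 and 0.215, and those of differently numbered libraries at -0.278 to 0.07. These values do not settle whether the samples were paired. With the replicate number as a block, 359 genes were higher and 349 lower, 6 Wnt genes were called (Frzb, Fzd1, Lgr6, Nkd2, Rspo1 and Rspo2), and the target and antagonist medians were 0.22 and 0.34.

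Median log2 fold changes moved as follows. The median of all Wnt genes was 0.20 with the 1 CPM filter and 0.205 to 0.355 leaving out 1 library. Leaving out 1 library gave -0.091 to 0.12 for ligands, 0.17 to 0.29 for receptors, 0.34 to 0.79 for antagonists and 0.18 to 0.40 for targets. The R-spondin median was 1.505 with the 1 CPM filter. The target median was 0.32 with upper-quartile scaling, 0.11 with the 1 CPM filter and 0.20 with limma-voom. Rspo1 was at 2.33 with limma-voom and 2.42 without robust estimation, where its adjusted p missed the threshold (0.0882 and 0.0621), and at 2.03 to 2.71 leaving out 1 library.

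Some single genes changed sign, none of them called. Wnt5a was 0.004 with DESeq2 size factors and with DESeq2, 0.04 with upper-quartile scaling and 0.014 with the 1 CPM filter. Upper-quartile scaling gave 0.021 for Wnt5b, 0.003 for Fzd7 and 0.005 for Znrf3, and limma-voom gave -0.008 for Nkd1. Leaving out 1 library gave -0.091 to 0.105 for Wnt5a, -0.18 to 0.12 for Wnt5b, -0.051 to 0.466 for Fzd2, -0.122 to 0.034 for Fzd7, -0.075 to 0.287 for Lrp4, -0.20 to 0.37 for Lgr4, -0.74 to 0.34 for Dkk1, -0.14 to 0.79 for Dkk2, -0.11 to 0.23 for Nkd1, -0.107 to 0.012 for Znrf3 and -0.12 to 0.20 for Apcdd1. The other 578 single-gene results kept their direction and side of the threshold, 28 gained a call and 8 lost one (Pkm without any 1 control, and Igfbp4 in those settings, with limma-voom and without robust estimation). On simulated counts with 3 libraries a group, edgeR recovered 26% of genes changed 2-fold, so differences of that size can be missed. The simulated dispersions were equal in both groups, whereas the real Pkm cKO libraries spread more than controls. That share may therefore not hold for the real counts.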
